A study of Arabidopsis thaliana with 12 samples.

Results

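The comparison described here is of mutations in 3 bromodomain protein genes in Arabidopsis thaliana seedlings that already lack the chromatin remodeller BRM. The brm-1 brd1,2,13 mutant, called the combined mutant here, was set against the brm-1 mutant. Members of the comparison were all gene records of the deposited table with status OK for it, a rule that uses no difference in level. They numbered 19017 of 31837 records (59.7%). RNA from whole Col-0 seedlings, 14 days old and grown under long days, was sequenced in 12 libraries, 3 for each of 4 genotypes. WT carried none of the mutations, brd1,2,13 carried mutations of BRD1, BRD2 and BRD13, brm-1 carried a mutation of BRM, and the combined mutant carried all of them. Both genotypes of the comparison therefore lacked BRM. The labels name neither the kind of the brd alleles nor whether the numbered libraries came from separate plantings.

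SWI/SNF complexes use the energy of ATP to slide or evict nucleosomes, and so change which stretches of DNA other proteins can reach. BRM is the ATPase of one class of these complexes in Arabidopsis, the BAS complexes, and BRD1, BRD2 and BRD13 are subunits of that class whose bromodomains bind acetylated lysines of histones. BRM is known for roles in leaf development, flowering, seed maturation and responses to abscisic acid (ABA). The comparison asks what the BRD mutations still change once the ATPase of their complex is lost.

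The deposited table gave 1 FPKM value (fragments scaled for transcript length and for the size of the library) per record and genotype, computed by the authors from the 3 libraries together. No spread between libraries could be had from it, so no value below has an error, no difference was tested, and the depth is unknown. A difference is given as the log2 difference, which is the log2 of (FPKM in the combined mutant + 1) over (FPKM in brm-1 + 1). Records were counted as different at 2-fold on this scale, with a looser rule of 1.5-fold beside it, among records that reached 1 FPKM in the higher genotype. This filter kept 17723 of the 19017 records. In whole seedlings, fewer cells of a type and less RNA per cell cannot be told apart.

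The tissue matched its label in its defining markers. The 5 leaf photosynthesis markers, such as the Rubisco activase RCA, summed to 35372 FPKM in brm-1 and 33903 in brm-1 brd1,2,13. Root hair markers summed to 40.05 and 33.2 FPKM, endodermis markers to 29.5 and 24.3, stomata and trichome markers to 24.9 and 24.4, and vascular markers to 139 and 114, with none of them at 0. The vascular, root hair and endodermis sums were thus the ones that differed most, all lower in the combined mutant, and their part in the results below was not tested. Floral organ identity genes summed to 26.9 and 25.0 FPKM, of which SEP3 alone held 23.4 and 20.6. AP1, AP3 and AG were each under 1 FPKM in both genotypes. Seed maturation markers were nearly absent, at 0.604 and 0.434 FPKM, with 2 of the 5 listed at 0 in the combined mutant.

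Transcript levels of the mutated genes followed the genotype labels. BRM stood at 17.5 FPKM in WT, 18.5 in brd1,2,13, 0.0954 in brm-1 and 0.12 in brm-1 brd1,2,13, and its record, which overlaps that of a neighbour, carried no OK status in the comparison. BRD13 was nearly lost from both genotypes that carry its mutation, at 0.223 FPKM in brd1,2,13 and 0.0194 in the combined mutant, where WT held 14.4 and brm-1 18.7. BRD1 kept more of its transcript: 12.7 FPKM in WT, 4.36 in brd1,2,13, 15.7 in brm-1 and 4.76 in brm-1 brd1,2,13. BRD2 kept 3.05 FPKM in brd1,2,13 and 3.08 in the combined mutant. Without the BRD mutations BRD2 stood at 7.04 FPKM in WT and at 22.5 in brm-1, so the log2 difference of -2.53 in the absence of BRM was larger than the -0.99 in its presence. BRD1 and BRD13 differed by -1.54 and -4.27.

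Few records differed when the BRD mutations were added to brm-1. Of the 17723 records, 44 (0.248%) were at least 2-fold higher in the combined mutant and 29 (0.164%) were at least 2-fold lower, 3 of the latter being BRD1, BRD2 and BRD13 themselves. Under the 1.5-fold rule 248 records (1.4%) were higher and 162 (0.914%) lower, and 97.7% of all records lay within 1.5-fold. Of all records that passed, 51.2% were above 0. The log2 differences had a median of 0.00 and an SD of 0.228 over records, and 90% of them lay between -0.31 and 0.35. The spread depended on level: the SD was 0.277 among records with a mean of 1 to 2 FPKM and 0.182 among those of 20 to 50 FPKM, so a given difference stands further out in an abundant transcript. Of the 73 records past 2-fold, 29 overlapped another record, 4 joined several genes and 4 were listed at 0 in 1 genotype.

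**Figure D1:**
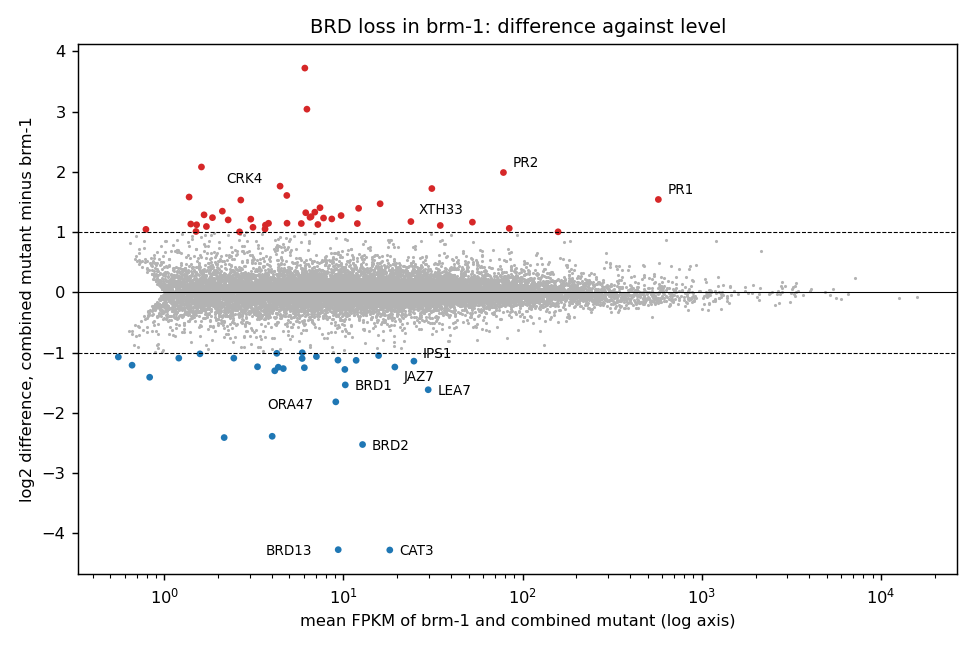
Each point is a gene record, with the mean FPKM of brm-1 and the combined mutant on a log axis and the log2 difference (combined mutant minus brm-1) on the vertical axis. Red and blue points are the 44 records at least 2-fold higher and the 29 at least 2-fold lower, with dashed lines at 2-fold; PR1 and PR2 stand out at high level.

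Several of the named genes with the largest excess in the combined mutant encode proteins of defence against microbes. PR2, which encodes a beta-glucanase secreted during salicylic acid responses (BGL2, chr3:21188517-21189859 in TAIR10), stood at 23.9 FPKM in WT, 19.4 in brd1,2,13, 30.9 in brm-1 and 126 in brm-1 brd1,2,13. The FPKM in the combined mutant was 4.06 times that in brm-1, a log2 difference of 1.99, while the 3 other genotypes lay close together. Its neighbour and relative BG3 (chr3:21181742-21183075) stood at 2.116, 1.74, 1.88 and 7.78 FPKM in the same order, a log2 difference of 1.61. PR1, the classical marker of salicylic acid signalling (chr2:6241704-6242463), had a different order: 53.8 FPKM in WT, 177 in brd1,2,13, 293 in brm-1 and 854 in brm-1 brd1,2,13. PR1 was thus higher with the BRD mutations in both backgrounds, by 1.699 on the log2 scale with BRM and by 1.54 without it. The apoplastic aspartyl protease gene AT5G10760 shared the excess in the combined mutant, at 14.1, 12.9, 14.0 and 48.4 FPKM.

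Several genes that make and read salicylic acid did not share this excess. Of 34 genes listed for salicylic acid and immunity, 29 passed the filter, 13 of them above 0 and 16 below, with a median log2 difference of -0.13. At least 2-fold higher were 3 (PR1, PR2 and RLP23), beside 0.248% of all records, and none was 2-fold lower. At 1.5-fold 4 were higher and 1 lower, beside 1.4% and 0.914% of all records. The combined mutant was the highest of the 4 genotypes in 13 of the 29. For this and later counts of the order of genotypes, the share over all records was not computed. ICS1, the synthase of the main salicylic acid route, stood at 9.59 FPKM in WT, 12.5 in brd1,2,13, 28.0 in brm-1 and 21.7 in brm-1 brd1,2,13. PBS3, which conjugates the precursor, stood at 2.14, 11.6, 29.2 and 20.2 FPKM. The transporter EDS5, the regulators NIMIN1, GRXC9, WRKY70, WRKY54 and WRKY62 and the activator SARD1 were likewise lower in the combined mutant than in brm-1, with log2 differences from -0.60 (GRXC9) to -0.36 (SARD1). All 29 nonetheless exceeded WT in both genotypes without BRM. The receptors and signalling hubs NPR1, NPR3, NPR4 and EDS1 differed by -0.14 to 0.18, and WRKY18 by 0.16.

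Receptor genes of the cell surface were a further group on the higher side. The families below were chosen by gene symbol after the values were seen, so their counts are a description only. CRK genes encode receptor kinases with cysteine-rich ectodomains. Of the 19 that passed 15 were above 0, beside 51.2% of all records, with a median log2 difference of 0.24. CRK4 (chr3:16863151-16866041) stood at 2.095 FPKM in WT, 1.198 in brd1,2,13, 1.47 in brm-1 and 7.39 in brm-1 brd1,2,13, a log2 difference of 1.76. CRK6, at 2.86, 2.23, 4.78 and 12.4 FPKM, differed by 1.22, whereas CRK13, at 0.748, 1.25, 10.098 and 5.57 FPKM, went the other way by -0.76. CRK5 and CRK7, which lie beside CRK6 on chromosome 4, differed by 0.67 and 0.50.

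RLP genes encode receptor-like proteins, which have leucine-rich repeats outside the cell and no kinase inside. Of the 33 that passed, 31 were above 0, with a median of 0.30, 9 past 1.5-fold higher and none past 1.5-fold lower, beside 51.2% above 0 and 1.4% past 1.5-fold higher over all records. RLP23, the receptor for a peptide of microbial NLP toxins, stood at 1.66 FPKM in WT, 1.74 in brd1,2,13, 4.22 in brm-1 and 11.3 in brm-1 brd1,2,13, a log2 difference of 1.23. RLP41 (1.403), RLP34 (0.86), RLP42 (0.79), RLP32 (0.74) and RLP38 (0.73) followed. With BRM present the RLP family had a median of 0.04. Of the 33 records, 16 overlap another record and several are close copies in tandem, so single values are uncertain. The wall-associated kinases WAK1, WAK2 and WAK3 differed by 0.60, 0.86 and 0.49. Other families examined in the same way were nearer to level: WRKY transcription factors had a median of 0.02 over 46 genes, 26 of them above 0 and none past 1.5-fold, and XTH cell wall enzymes a median of 0.13 over 25, 17 of them above 0.

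Genes of the response to low oxygen formed a second set on the higher side. Hypoxia in plants is sensed by oxidation of ERF transcription factors through the PCO enzymes, and stabilised ERFs switch on fermentation and haemoglobin genes. Of 22 listed genes 17 were matched to the annotation and 14 passed the filter. None reached 2-fold, 6 were at least 1.5-fold higher and none 1.5-fold lower, beside 1.4% and 0.914% of all records. Of the 14, 13 were above 0, beside 51.2% of all records, and the median was 0.44 beside 0.00. HB1, the non-symbiotic haemoglobin that removes nitric oxide, stood at 24.7 FPKM in WT, 12.9 in brd1,2,13, 63.1 in brm-1 and 123 in brm-1 brd1,2,13. PDC1, a pyruvate decarboxylase, stood at 3.83, 3.26, 26.9 and 52.9 FPKM in that order, and SUS4, a sucrose synthase, at 3.97, 4.23, 12.2 and 23.2. These 3 genes differed by 0.95, 0.95 and 0.87.

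The alcohol dehydrogenase ADH1 stood at 15.9, 14.3, 93.2 and 143 FPKM, the oxygen sensor PCO2 at 2.38, 1.47, 9.14 and 17.3, and the ERF factors HRE1 and HRE2 differed by 0.56 and 0.73. The one list member below 0 was RAP2.12, an ERF that is regulated through protein stability, at -0.11. Combined mutant levels were the highest of the 4 genotypes in 12 of the 14 genes, with no share over all records at hand. In the presence of BRM the same BRD mutations gave a list median of -0.11, and HB1 was lower in brd1,2,13 than in WT. NIP2;1, a membrane channel induced by low oxygen, belongs to no list but stood at 0.17, 0.0959, 3.49 and 9.71 FPKM. Without overlapping records, which include PDC1 and ADH1, the list median was 0.32.

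Auxin-responsive growth genes were mostly higher in the combined mutant, from a level that was low in brm-1. SAUR genes encode short proteins that keep the plasma membrane proton pump active and so promote cell expansion. All 14 SAUR genes named by symbol and passing the filter were above 0, beside 51.2% of all records. Their median was 0.44 and their range from 0.11 to 1.08. With BRM present 1 of the 14 was above 0, with a median of -0.42. SAUR26 stood at 17.37 FPKM in WT, 12.1 in brd1,2,13, 4.30 in brm-1 and 9.49 in brm-1 brd1,2,13, and SAUR15 at 26.6, 20.6, 6.92 and 13.6. Levels without BRM thus lay under those with BRM in both genes, and the combined mutant was the nearer of the pair to WT. Several SAUR genes are close copies beside each other and may share reads.

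Among the 14 SAUR genes named by symbol, SAUR27 was the 1 past 2-fold, at 7.80, 6.83, 1.65 and 4.60 FPKM (1.08). It is not on the auxin list. SAUR genes that the reference gives without such a symbol were not counted. Of 58 auxin list genes, some SAURs included, 51 passed, with a median of 0.10. None reached 2-fold, 7 were at least 1.5-fold higher and none was 1.5-fold lower, beside 1.4% and 0.914% of all records. The Aux/IAA repressors IAA29 (13.7, 11.8, 3.03 and 6.497 FPKM), IAA5 (13.0, 9.19, 2.19 and 4.49) and IAA19 (19.9, 19.9, 13.0 and 22.6) differed by 0.89, 0.78 and 0.75. Brassinosteroid genes had a median of 0.18 over the 17 of 20 that passed. Of these 14 were above 0, beside 51.2% of all records, and none was past 1.5-fold. BEE1, a growth-promoting helix-loop-helix factor, led them at 47.7, 31.7, 21.9 and 33.2 FPKM (0.58).

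Further genes past or near 2-fold on the higher side are given singly, and whether they share a group with those above was not examined. XTH33, a xyloglucan-modifying enzyme of the cell wall, stood at 4.03 FPKM in WT, 1.78 in brd1,2,13, 14.2 in brm-1 and 33.4 in brm-1 brd1,2,13 (1.17). PDF1.2c, a plant defensin, stood at 1.94, 0.66, 3.51 and 10.3 FPKM (1.33), and its near-identical copy PDF1.2 at 11.7, 9.89, 15.7 and 22.3 (0.48). ECS1, a cell wall protein linked to disease resistance, was abundant and lowest in brm-1, at 886, 747, 451 and 821 FPKM (0.86). The ubiquitin ligase gene RING1 differed by 0.87 and TOM7-2, a subunit of the mitochondrial import pore, by 1.14, both with an overlapping record. For GSTU22, a glutathione transferase, a record of 2.00 FPKM in brm-1 and 5.64 in brm-1 brd1,2,13 differed by 1.15. The table's other GSTU22 record at the same locus held 8.78 and 9.43 FPKM, a log2 difference of 0.09.

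The largest single values among higher records came from short or poorly known loci. AT5G35510, annotated as a TIR-NBS-LRR resistance gene at a short locus (chr5:13699830-13700036), was listed at 0 in WT and brm-1 and at 10.3 FPKM in brd1,2,13 and 12.2 in the combined mutant. AT3G57157 stood at 11.5 FPKM in WT, 39.0 in brd1,2,13, 0.575 in brm-1 and 11.9 in brm-1 brd1,2,13. CLE14, which encodes a small signalling peptide, was listed at 0 in brm-1 and at 3.23 FPKM in brm-1 brd1,2,13, close to its 3.81 in WT. All of the chloroplast records that passed, 8 in number, were above 0 (0.15 to 0.55), as was the median of 8 mitochondrial records (0.14); none reached 1.5-fold. Over the 5 nuclear chromosomes the medians lay between -0.0046 and 0.0111.

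**Figure D2:**
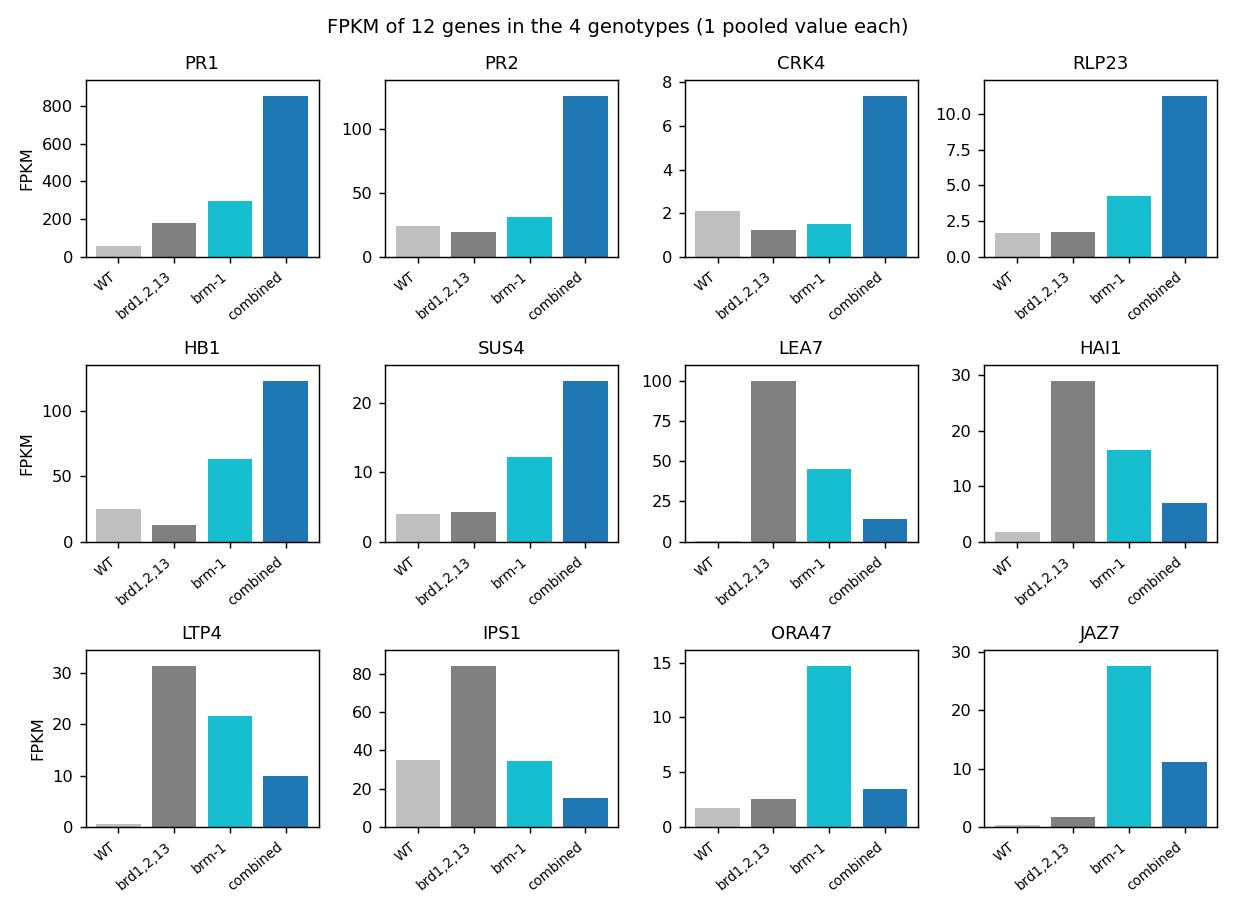
Bars give the FPKM of 12 genes in WT, brd1,2,13, brm-1 and the combined mutant, 1 pooled value each, on linear axes that start at 0. PR2 and CRK4 are high in the combined mutant alone, PR1, RLP23, HB1 and SUS4 are higher without BRM and highest in the combined mutant, and LEA7, HAI1 and LTP4 are highest in brd1,2,13 and lower in the combined mutant than in brm-1.

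On the lower side, genes of the response to cold and water deficit stood together. LEA proteins and dehydrins protect membranes and proteins in drying cells, and many of their genes are switched on by ABA. Of 31 listed genes 24 passed the filter, and all 24 were lower in the combined mutant than in brm-1. Among them 2 were at least 2-fold lower and 9 at least 1.5-fold lower, beside 0.164% and 0.914% of all records. The median was -0.43 beside 0.00 over all records. With BRM present the same BRD mutations went the other way, with a median of 1.32 in brd1,2,13 against WT. There 21 of the 25 that passed were at least 1.5-fold higher, beside 5.02% of all records. The list was drawn up with earlier results of these data known, so its direction is not independent evidence.

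LEA7 (chr1:19619745-19623461) stood at 0.658 FPKM in WT, 99.97 in brd1,2,13, 45.4 in brm-1 and 14.1 in brm-1 brd1,2,13, a log2 difference of -1.62. Its record shares its locus with AT1G52695, which was listed at 0 in every genotype. LTP4, a lipid transfer protein (chr5:23925085-23925852), stood at 0.63, 31.4, 21.5 and 9.89 FPKM, a log2 difference of -1.05. Its close copy and neighbour LTP3, with which it may share reads, stood at 4.28, 87.3, 73.4 and 51.0 (-0.52). In all of them brd1,2,13 and brm-1 were each far above WT, and the combined mutant lay below both but still above WT. That order was found in 15 of the 24 genes, and 19 of the 24 were highest in brd1,2,13.

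COR15A, which protects chloroplast membranes in the cold, did not follow that order, since its 4.25 FPKM in the combined mutant lay below the 5.75 of WT (15.9 in brd1,2,13, 8.69 in brm-1). KIN1, a small hydrophilic cold-induced protein, stood at 7.90, 32.4, 27.3 and 16.8 FPKM (-0.67) and the dehydrin RAB18 at 13.6, 98.4, 42.9 and 27.8 (-0.61). P5CS1, the rate-limiting enzyme of proline synthesis, stood at 75.4, 262, 152 and 97.6 FPKM (-0.63). The NAC factor RD26, which is induced by drought and ABA, stood at 18.8, 41.1, 33.01 and 21.3 FPKM (-0.61). Abundant members differed less: KIN2, at 173, 452, 369 and 332 FPKM, by -0.15, and COR413-PM1, at 179, 335, 220 and 195, by -0.17. Outside the list, LEA18 stood at 0 in WT, 2.64 in brd1,2,13, 2.46 in brm-1 and 0.704 in brm-1 brd1,2,13, and the LEA family gene AT3G17520 at 0.0598, 10.7, 6.49 and 2.17.

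The promoters of LEA7 and of the ABA pathway phosphatase HAI1 are shown because these genes had large differences of opposite sign in the 2 backgrounds. The lines give the 250 bases before the annotated gene start in the RefSeq annotation of TAIR10.1. Capitals mark the core of the ABA-responsive element (ACGTG or its reverse complement CACGT), to which ABF factors bind.
LEA7 (chr1:19619474-19619723, strand +): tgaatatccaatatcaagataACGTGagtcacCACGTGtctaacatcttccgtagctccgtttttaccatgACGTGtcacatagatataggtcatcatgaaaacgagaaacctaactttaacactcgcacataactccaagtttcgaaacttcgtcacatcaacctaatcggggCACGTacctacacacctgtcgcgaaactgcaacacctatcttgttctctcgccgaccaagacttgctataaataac
HAI1 (chr5:23896940-23897189, strand -): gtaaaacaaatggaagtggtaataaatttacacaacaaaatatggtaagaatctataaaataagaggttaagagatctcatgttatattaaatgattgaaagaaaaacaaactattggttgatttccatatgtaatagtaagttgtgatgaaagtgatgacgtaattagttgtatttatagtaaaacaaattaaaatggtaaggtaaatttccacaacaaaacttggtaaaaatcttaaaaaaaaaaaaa
LEA7 had 5 matches at 4 separate places, the farthest starting 229 and the nearest 76 bases before the gene start, with 2 of them overlapping in a palindrome. HAI1 had none in this window, and neither had LTP4. For both, the RefSeq gene start lies outside the locus of the record, which ends at chr5:23896619 for HAI1 and chr5:23925852 for LTP4. The bases between record and window were not searched. The core was in 22.9% of 27443 protein-coding promoters of this length, in 14 of 24 (58.3%) of the promoters of the cold and dehydration list, in 7 of 23 (30.4%) of those of genes at least 2-fold lower, the mutated genes left out, and in 12 of 31 (38.7%) of those at least 2-fold higher. A match is a description of the sequence and not a site of binding.

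Genes of ABA signalling itself were less uniform. Of 38 listed genes 29 passed, 1 was at least 2-fold lower, beside 0.164% of all records, no other reached 1.5-fold, and the median was -0.04. HAI1, a clade A PP2C phosphatase that restrains ABA signalling and is induced by it (chr5:23894404-23896619), stood at 1.76 FPKM in WT, 29.0 in brd1,2,13, 16.5 in brm-1 and 7.02 in brm-1 brd1,2,13, a log2 difference of -1.13. The phosphatases HAB1, HAI2 and ABI1 were also lower, by -0.41, -0.37 and -0.32. The receptors went the other way: PYL6 stood at 6.88, 4.67, 34.1 and 42.8 FPKM (0.32), PYL4 at 72.9, 43.5, 120 and 145 (0.27) and PYL5 at 33.9, 20.7, 80.7 and 95.6 (0.24). None of these receptor differences reached 1.5-fold.

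Phosphate starvation genes were lower in the combined mutant as well. When phosphate is short, plants release it with phosphatases, replace phospholipids by galactolipids and sulfolipids, and raise its uptake. Of 29 listed genes 25 passed: 2 were at least 2-fold lower, 6 at least 1.5-fold lower, none 1.5-fold higher, and 21 were below 0 and 4 above, with a median of -0.25. Over all records 0.164% were 2-fold lower, 0.914% were 1.5-fold lower and 51.2% were above 0. IPS1, a non-coding RNA that titrates the microRNA acting on PHO2 (chr3:3050989-3051530), stood at 34.8 FPKM in WT, 84.2 in brd1,2,13, 34.5 in brm-1 and 15.1 in brm-1 brd1,2,13 (-1.14). The purple acid phosphatase PAP14 (chr2:19264573-19266446) stood at 10.8, 17.401, 3.69 and 1.198 FPKM (-1.09). The phosphatases PEPC1 and PS2 stood at 27.6, 138, 17.1 and 9.14 FPKM (-0.83) and at 30.9, 154, 19.6 and 11.6 (-0.71).

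Unlike LEA7, LTP4 and LTP3, these 4 transcripts lay below WT in the combined mutant and at or below WT in brm-1. The lipid synthase MGD3 (15.6, 43.2, 9.01 and 5.66 FPKM), the phosphate sensor SPX1 (118, 172, 86.6 and 58.0) and the diesterase GDPD1 (79.2, 128, 50.1 and 32.9) differed by -0.59, -0.57 and -0.59. The regulator PHR1 (44.6, 45.0, 37.6 and 39.2 FPKM) and the transporter PHO1 (25.3, 28.2, 27.4 and 24.9) differed by 0.06 and -0.13. In brd1,2,13 the list was on the other side of WT, with a median of 0.63, and 20 of the 25 genes had their highest level there.

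The promoters of IPS1 and PAP14 are shown because these were the list members past 2-fold. Capitals mark P1BS, the palindromic motif GNATATNC to which PHR1 binds.
IPS1 (chr3:3050739-3050988, strand +): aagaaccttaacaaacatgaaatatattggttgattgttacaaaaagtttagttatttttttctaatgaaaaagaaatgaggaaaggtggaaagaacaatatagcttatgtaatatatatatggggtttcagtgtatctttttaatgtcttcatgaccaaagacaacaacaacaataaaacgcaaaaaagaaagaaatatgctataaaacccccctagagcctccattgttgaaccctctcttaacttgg
PAP14 (chr2:19266457-19266706, strand -): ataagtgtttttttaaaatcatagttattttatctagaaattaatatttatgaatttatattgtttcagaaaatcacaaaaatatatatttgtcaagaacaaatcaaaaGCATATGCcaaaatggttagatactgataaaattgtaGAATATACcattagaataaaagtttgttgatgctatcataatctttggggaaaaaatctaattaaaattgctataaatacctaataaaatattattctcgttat
PAP14 had 2 matches, starting 141 and 104 bases before the gene start, and IPS1 had none in this window, nor had PEPC1. The motif was in 5.46% of all protein-coding promoters of this length and in 6 of 25 (24%) of those of the list.

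Several jasmonate and ERF genes that were high in brm-1 were lower in the combined mutant, while others were higher still. ORA47, an ERF that activates jasmonate synthesis (chr1:28143757-28145087), stood at 1.76 FPKM in WT, 2.54 in brd1,2,13, 14.7 in brm-1 and 3.45 in brm-1 brd1,2,13, a log2 difference of -1.82. JAZ7, one of the JAZ repressors that jasmonate destroys and then induces (chr2:14573080-14573856), stood at 0.31, 1.64, 27.6 and 11.1 FPKM (-1.24). In both genes brm-1 was the highest of the 4 genotypes and the combined mutant the next. Of the 9 JAZ genes that passed 8 were below 0, whereas 51.2% of all records were above 0. Their median was -0.25: JAZ5 stood at 0.991, 1.74, 15.9 and 10.01 FPKM (-0.62) and JAZ1 at 12.4, 14.8, 48.1 and 33.5 (-0.51). MYC2, the main transcription factor of the pathway, stood at 13.1, 15.0, 49.3 and 29.8 FPKM (-0.71).

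Over the whole jasmonate and defensin list, 34 of 38 genes passed, with a median of -0.15. At least 2-fold higher was 1 (PDF1.2c), at least 2-fold lower 1 (JAZ7) and at least 1.5-fold lower 3. Over all records these shares were 0.248%, 0.164% and 0.914%. The output genes LOX2 (26.2, 54.0, 132 and 163 FPKM), TAT3 (5.54, 5.49, 40.8 and 57.2) and NATA1 (0.395, 4.37, 7.65 and 11.97) were higher in the combined mutant, by 0.30, 0.48 and 0.58. ERF-1 (27.3, 27.4, 104 and 60.6 FPKM) and ERF2 (18.5, 18.9, 79.9 and 50.6), activators of defence genes, differed by -0.77 and -0.65. ERF109, which overlaps another record, was listed at 0 in WT and brd1,2,13, at 1.32 FPKM in brm-1 and at 0.00239 in brm-1 brd1,2,13. The ethylene and ERF list was level in its median, at -0.01, with 12 of its 24 genes that passed above 0 and 12 below. At 1.5-fold 4 were lower and 2 higher, beside 0.914% and 1.4% of all records. The higher ones were ACS11, an ethylene synthesis enzyme, and the receptor ETR2, by 0.70 and 0.61.

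Of the other genes at least 2-fold lower, the catalase CAT3 needs the most care. Its own record stood at 0.316 FPKM in WT, 30.0 in brd1,2,13, 35.4 in brm-1 and 0.878 in brm-1 brd1,2,13, the largest difference in the comparison (-4.28). A second record of the same locus, which joins CAT3 with the neighbouring gene AT1G20630, held 418, 905, 1398 and 1493 FPKM, a log2 difference of 0.10, so most of the signal at the locus was in a record that differed little. The locus lies within 50 kb of BRD1, and no other record within that distance of BRD1, BRD2, BRD13 or BRM that passed the filter reached 1.5-fold, apart from the mutated genes. BAM5, the beta-amylase of phloem (chr4:8666338-8669470), stood at 4.21, 3.18, 8.93 and 3.17 FPKM (-1.25). TSPO, a membrane protein induced by ABA, stood at 0.0311, 8.57, 6.31 and 1.96 FPKM (-1.30), in a record that overlaps others.

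BAP2, an inhibitor of programmed cell death, stood at 0.763 FPKM in WT, 2.57 in brd1,2,13, 13.2 in brm-1 and 5.49 in brm-1 brd1,2,13 (-1.13). CER1, which makes the alkanes of the leaf wax, stood at 11.5, 30.0, 27.7 and 14.1 FPKM (-0.92). It was thus high in brd1,2,13 and brm-1 and near WT in the combined mutant. ELIP2, a pigment-binding protein induced by strong light, stood at 263, 217, 171 and 92.7 FPKM (-0.88), the lowest in the combined mutant. MIF3, a mini zinc finger protein, stood at 2.58, 5.14, 5.01 and 2.07 FPKM (-0.97), RTFL12, a small peptide gene, at 12.04, 15.9, 14.3 and 8.14 (-0.74), and LSU1, induced by low sulfur, at 24.9, 40.4, 24.2 and 14.2 (-0.73). The chaperone gene Hsp70-2 differed by -0.81, in an overlapping record.

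Across the 38 lists, 31 had no member past 2-fold, 21 had none past 1.5-fold, and 23 had a median within 0.1 of 0. Medians of at least 0.2 either way were found for 5 lists: cold and dehydration, phosphate starvation and hypoxia, described above, and flavonoids and the Casparian strip. Over all records 51.2% were above 0. Of 31 flavonoid genes 19 passed, 16 of them below 0 with a median of -0.25 and none past 1.5-fold. The flavonol synthase FLS1 stood at 57.3 FPKM in WT, 35.1 in brd1,2,13, 13.4 in brm-1 and 8.74 in brm-1 brd1,2,13 (-0.56), and CHS, the entry enzyme, at 357, 368, 185 and 131 (-0.50). In brd1,2,13 against WT the flavonoid median was also -0.25, over 25 genes. Of the 19 genes in both comparisons, however, 9 had opposite signs, and CHS differed by 0.04 with BRM present. Of 20 listed Casparian strip genes 17 were matched and 15 passed, 13 below 0 with a median of -0.22, led by the regulator MYB36 (2.45, 1.98, 3.54 and 2.104 FPKM, -0.55).

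Small shifts in 1 direction were also seen in lists with lower medians. Of 45 cell cycle genes that passed 37 were below 0 (median -0.16), such as the cyclin CYCB1;2 at 8.08, 6.93, 9.25 and 6.66 FPKM. Of 26 glucosinolate genes 22 were below 0 (median -0.19), with none past 1.5-fold in either list. Over all records 51.2% were above 0. Genes of other SWI/SNF subunits were nearly level: 15 of 18 passed, from -0.25 for the ATPase MINU1 to 0.09 for BRIP2, with SYD, the ATPase closest to BRM, at 9.30 FPKM in brm-1 and 9.17 in brm-1 brd1,2,13. Other bromodomain genes had a median of 0.08 over 9 genes. Reference genes had a median of -0.07 over 17, and photosynthesis genes one of -0.03 over 27.

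**Figure D3:**
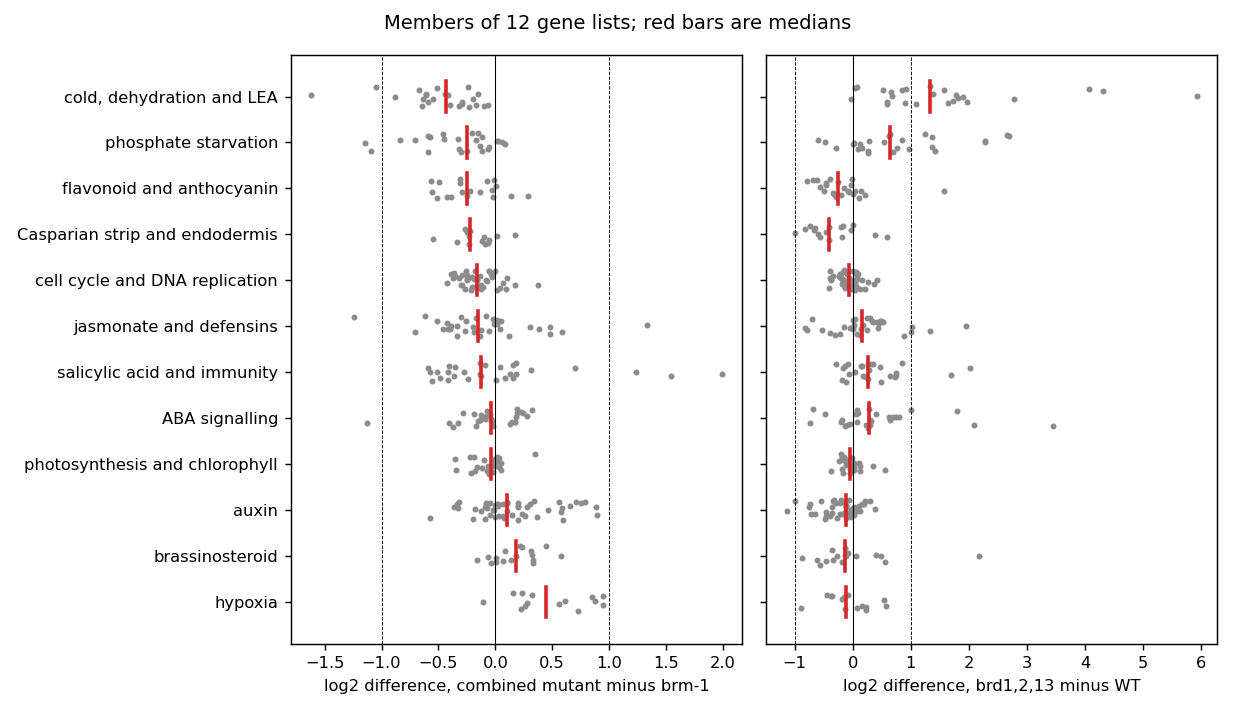
Points are the genes of 12 lists that passed the filter, placed by the log2 difference of the combined mutant minus brm-1 (left) and of brd1,2,13 minus WT (right), with medians as red bars and dashed lines at 2-fold. The cold and dehydration list lies wholly below 0 on the left (median -0.43) and mostly above 0 on the right (median 1.32), and the hypoxia list has the highest median on the left (0.44).

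More records differed with the same BRD mutations where BRM was present. In brd1,2,13 against WT, which shares no library with the comparison above, 17859 records passed the filter, 340 (1.9%) at least 2-fold higher and 103 (0.577%) at least 2-fold lower. At 1.5-fold the counts were 896 (5.02%) and 463 (2.59%), and 92.4% of records lay within 1.5-fold, with an SD of 0.368 against 0.228 without BRM. Across the 18011 records in both comparisons the differences had a Pearson correlation of -0.01 and a Spearman correlation of 0.11. Genes are not independent replicates, and no test was made.

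Records that were higher in brd1,2,13 than in WT lay on both sides of 0 without BRM, more of them below. Of 322 records at least 2-fold higher in brd1,2,13 (median 1.36), 125 were above 0 and 197 below 0 in the combined mutant against brm-1, with a median of -0.14. Among them 5 (1.55%) were at least 2-fold higher and 11 (3.42%) at least 2-fold lower without BRM, beside 0.248% and 0.164% of all records. At 1.5-fold 21 (6.52%) were higher and 50 (15.5%) lower, beside 1.4% and 0.914% of all records, so both directions were more frequent here. Of 89 records at least 2-fold lower in brd1,2,13, 49 were above 0, with a median of 0.04. Seen from the other side, the 26 records at least 2-fold lower in the combined mutant than in brm-1 that were in both comparisons had a median of 0.54 in brd1,2,13 against WT, and 11 of them were at least 2-fold higher there. The 37 at least 2-fold higher had a median of -0.08.

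**Figure D4:**
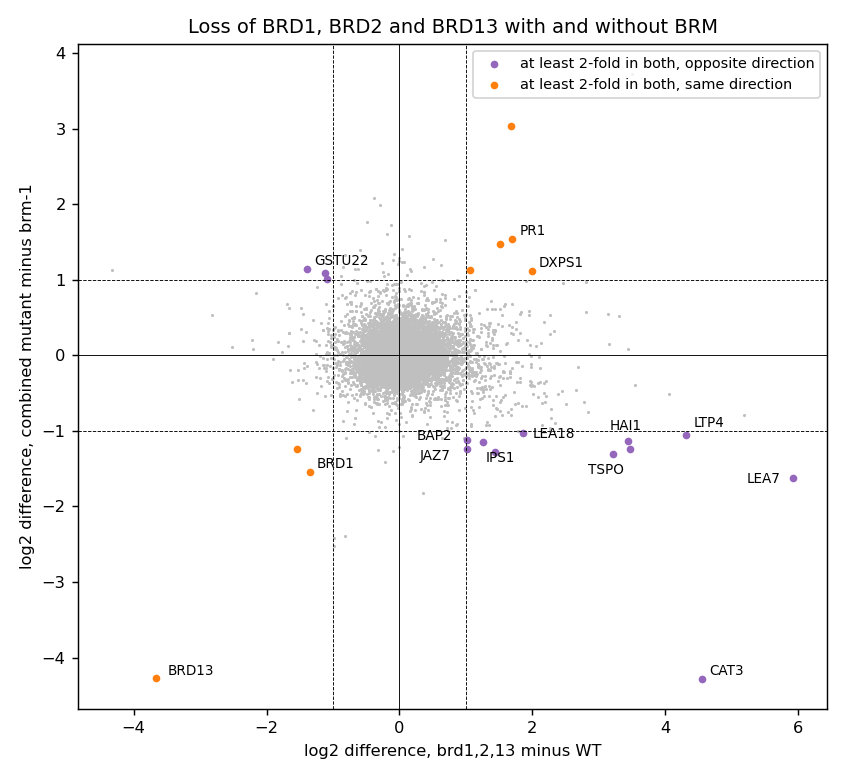
Each point is a gene record, with the log2 difference of brd1,2,13 minus WT on the horizontal and of the combined mutant minus brm-1 on the vertical axis, and dashed lines at 2-fold. Purple points are the 14 records at least 2-fold different in opposite directions, orange points the 8 at least 2-fold different in the same direction; LEA7, LTP4, HAI1 and CAT3 lie far to the lower right.

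In 22 records the BRD mutations gave at least a 2-fold difference in both backgrounds, 8 in the same direction and 14 in opposite directions. The 8 were BRD1 and BRD13 themselves, PR1, the isoprenoid gene DXPS1, AT2G41231, AT3G54080, AT3G57157 and the joined record of AT2G15040 and AT2G15042. The difference between the effects, the log2 difference without BRM minus that with BRM, was at least 1 in 206 of the 18011 records (1.14%) and at most -1 in 392 (2.18%), with an SD of 0.424. Each such value rests on 4 pooled levels and has no error.

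Several of the largest positive differences between the effects came from genes that were low in every mutant. AIR1, a wall protein of lateral root formation, stood at 22.8 FPKM in WT, 3.15 in brd1,2,13, 3.27 in brm-1 and 3.61 in brm-1 brd1,2,13. IRT1, the iron transporter of the root, stood at 10.3, 1.42, 1.197 and 1.52 FPKM, and ARR15, a cytokinin response regulator, at 5.63, 0.945, 1.24 and 1.304. With BRM the BRD mutant lay below WT by -1.77 (ARR15) to -2.52 (AIR1), and without BRM the differences were 0.04 to 0.20. PCC1, a small membrane protein induced by pathogens, instead stood at 66.5, 19.97, 45.4 and 73.5 FPKM, a difference of 0.68 without BRM and of -1.69 with it.

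At the negative end, beside LEA7, LTP4, HAI1, LTP3 and RAB18, stood DIP2 (2.88, 26.9, 4.35 and 2.19 FPKM), the glyoxalase gene GLYI7 (0.249, 5.33, 4.73 and 2.07) and the senescence ribonuclease RNS1 (4.54, 34.1, 17.9 and 12.7). Their differences between the effects were -3.59, -3.24 and -3.12. DIP2 was high in brd1,2,13 alone, whereas GLYI7 and RNS1 were high in brd1,2,13 and brm-1 and lower in the combined mutant.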

How the data were processed

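RNA-seq libraries of WT, brd1,2,13, brm-1 and brm-1 brd1,2,13 seedlings were grouped by their labels, 3 a genotype. Per the submitters' processing notes, the authors used TopHat, of a version the sources used here do not give, and Cufflinks 2.1.1 with the TAIR10 genome, and deposited 1 gene table of Cuffdiff in which each genotype has 1 FPKM value per record, computed over its 3 libraries. Fragments are scaled for depth and transcript length, so depth, replicate spread and counting error could not be had. The sources used here do not say if reads were counted by strand, and overlapping or antisense genes may therefore share them. Locus coordinates are those of the whole overlapping cluster. The table also holds the authors' own comparisons (log2 fold change, test statistic, p-value, q-value and a significance flag), which were not used.

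Differences were computed as log2(FPKM + 1) with Python 3.11.15, pandas 2.3.3 and numpy 2.4.6, and plotted with matplotlib 3.10.9. Records with status OK that reached 1 FPKM in either genotype were counted at 2-fold and 1.5-fold. With 1 value per genotype no test was made, and these size rules stand in its place. Among OK records, 1903 join several genes and 6203 overlap another record. Where a gene had several records, the one with the highest mean FPKM represented it in lists. Symbols came from RefSeq TAIR10.1, in which 29057 single-gene records were found. The script for differences was tested on simulated data.

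The members and lists were chosen with earlier results of these data known, and the CRK, RLP, SAUR, WAK, JAZ, WRKY and XTH families after their values were seen. Named genes were the 4 mutated genes, the 20 largest higher and 20 largest lower single-gene records with a symbol that reached 5 FPKM in either genotype, each list's members past 2-fold or else up to 4 of its largest, the 10 largest differences between the effects in each direction, and neighbours of mutated genes within 50 kb past 1.5-fold. Other names were chosen after their values were seen, and not every gene that the rule selects is reported here. Alternatives were pseudocounts of 0.1, 0.5 and 5 FPKM, other filters, scalings and fold rules, and leaving out overlapping and joined records.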

Additional observations from a re-analysis of the deposited data

Results flagged for a closer look

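In 14 records the BRD mutations gave at least a 2-fold difference in opposite directions with and without BRM. The difference itself was not tested, because each genotype has 1 pooled value. The log2 difference without BRM minus that with BRM was -8.84 for CAT3, -7.55 for LEA7, -5.36 for LTP4, -4.71 for AT3G17520, -4.57 for HAI1 and -4.52 for TSPO. It was -2.89 for LEA18, -2.72 for AT5G09570, -2.39 for IPS1, -2.25 for JAZ7 and -2.15 for BAP2. Positive values were found for AT2G21200 (2.101), AT3G51120 (2.21) and GSTU22 (2.54). For CAT3, GSTU22 and AT3G51120 a further record of the gene at the same locus held more signal and differed by less than 1.5-fold between brm-1 and the combined mutant.

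Records without OK status lie outside the comparison, and 14 of them reached 5 FPKM. In 13 of these the higher of the 2 brm-1 genotypes was above WT while the other was listed at 0. The combined mutant was the higher one for AT5G18661 (409 FPKM), AT5G04790 (64.8), AT2G11891 (55.9), AT3G28899 (10.2), AT4G36791 (8.43), AT4G11870 (7.17), AT3G20900 (6.15), AT3G23109 (6.05) and AT1G51035 (5.05). The brm-1 mutant was the higher one for AT2G35743 (45.8 FPKM), AT4G26055 (12.5), AT5G04238 (10.4) and MIR159a (7.98). Of the 13 loci, 10 are under 350 bases long, and 10 are listed at 0 in WT. A value of 0 in such short records can be a failed estimate, so no fold is given.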

How the results depend on the processing

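Differences at 2-fold numbered 73 in the combined mutant against brm-1. Pseudocounts of 0.1, 0.5 and 5 FPKM gave 211, 127 and 17, leaving out overlapping and joined records gave 42, and the 1.5-fold rule gave 410. For brd1,2,13 against WT the 443 differences became 747 and 135 with pseudocounts of 0.1 and 5, 286 with a filter of 5 FPKM and 1359 at 1.5-fold. Differences between the effects of at least 1 either way numbered 598, or 1023 and 207 with pseudocounts of 0.1 and 5. The 5 lists with a median of at least 0.2 either way became 3 with a pseudocount of 5 and 3 with no filter. For the 40 named genes with the largest differences a pseudocount or a filter cannot change the sign, and the 2 scalings did not. None of the 5 lists changed sign. The medians of 10 other lists did under some setting, each of them at most 0.1218 from 0 as reported, such as photoperiod and floral promotion (0.1218, and -0.1404 with a filter of 5 FPKM) and floral organ identity (0.0056, and -0.1300). The Pearson correlation between the effects with and without BRM was 0.0104 with a pseudocount of 5. Among these 40 genes 16 no longer reached 2-fold with a pseudocount of 5, 4 newly did with 0.1 and 2 with 0.5. Median-of-ratios scaling shifted differences by at most 0.0098 and TPM scaling by at most 0.0918, with a median shift of 0.0034 under TPM. Small counts of low transcripts thus depend on the pseudocount, and without counts the depth behind them is unknown. No paired analysis was possible because each genotype has 1 value over its 3 libraries, so neither the replicate block nor leaving out a replicate could be run.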
